A study of Mus musculus with 10 samples.

Results

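The genes of oxidative phosphorylation were taken as those whose symbol starts with Nduf, Sdh, Uqcr, Cox4, Cox5, Cox6, Cox7, Cox8 or Atp5 in the array's probe annotation. The rule found 94 of the 18193 genes measured, and the prefixes sort them into complex I (Nduf, 44 genes), complex II (Sdh, 8), complex III (Uqcr, 8), complex IV (Cox4 to Cox8, 17) and complex V (Atp5, 17). The prefixes also take in 12 assembly factors, 8 Ndufaf and 4 Sdhaf genes, whose proteins help to build complexes I and II but are not part of them. Each gene is represented by its brightest probe set among those with 1 gene symbol, and 8 further symbols with these prefixes, such as Ndufs6 and Ndufa11, lie only on probe sets shared between genes and were not used.

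Oxidative phosphorylation is the mitochondrial process in which complexes I to IV pass electrons from NADH and succinate to oxygen while pumping protons, and complex V, the ATP synthase, uses the proton gradient to make ATP. Complex II pumps no protons and is also an enzyme of the tricarboxylic acid cycle. All of the genes described here are nuclear, and resting blood stem cells are known to draw less on this process than cycling progenitors do. The subunits encoded by mitochondrial DNA are outside the rule.

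RNA was hybridised to 10 Affymetrix arrays, 1 per sample, from bone marrow cells of C57BL/6 mice aged 5 to 6 weeks. The 4 W692A samples carried the AML1/ETO fusion with an amino acid substitution, W692A, in its MYND domain, which the series title ties to binding of the corepressors SMRT and N-CoR. The 3 AML1/ETO samples carried the intact fusion, the product of a chromosome translocation in human acute myeloid leukaemia that joins the DNA-binding part of RUNX1 to ETO. The 3 GFP samples carried the empty MigR1 retroviral vector. Cells of every group were depleted of lineage-positive cells, selected for Sca1, cultured with IL-3, IL-6 and SCF, transduced in 2 rounds, and sorted 48 hours after the second for GFP, Sca1 and cKit among live cells without lineage markers, at 25000 cells per sample. The fusions were therefore expressed from a retrovirus in cultured normal cells beside the cells' own Runx1. The labels describe independent transductions but do not say whether each came from separate mice, so p-values measure only the spread between these samples.

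Values are log2 intensities, and a difference of 1 on this scale is a 2-fold difference. The brightest unlabelled bacterial control probe set reached 2.04, which served as the background bound: 86 of the 94 genes had a group mean above it, and 8 (Ndufa4l2, Ndufb1, Ndufb4, Cox4i2, Cox6b2, Cox7b2, Cox8b and Atp5l) did not. Calls are limma tests at a Benjamini-Hochberg adjusted p under 0.05 over all 18193 genes, with errors of differences given as standard errors. The comparisons share arrays, so their calls are not independent of each other. Correlations between arrays used only genes whose mean over the arrays exceeded the bound. Their r was 0.982 to 0.992 within groups and 0.887 to 0.962 between groups. Of the stem and progenitor markers, 11 of 12 were above the bound, among them Cd34, while the probe set for Kit was at or below it on all 10 arrays although the cells were sorted for that protein. Of the lymphoid markers, 2 of 10 were above it.

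With AML1/ETO, 21 of the 94 genes were lower than with GFP and 5 were higher. Among all genes measured, 15.8% were lower and 12.9% were higher in that comparison, so the share of lower genes (22.3%) was above the background and the share of higher genes (5.32%) below it. Among the 8820 genes above the bound, 29.8% were lower and 22.6% higher, and of the 86 oxidative phosphorylation genes above it 24.4% were lower and 5.81% higher, both below that background. The median log2 difference over the 94 genes was −0.06, against −0.02 over all genes. In RNA of sorted populations, fewer cells of a type and less RNA per cell cannot be told apart.

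With W692A, 30 of the 94 genes were higher than with AML1/ETO and 3 were lower, against backgrounds of 9.61% higher and 11.1% lower among all genes. Above the bound, 34.9% of the oxidative phosphorylation genes were higher and 3.49% lower, against 18.9% and 20.2% of all genes. The median log2 difference was 0.24, against 0.03 over all genes, and 80 of the 94 differences were positive. Set against GFP, W692A samples had 18 genes higher and 3 lower, against backgrounds of 5.45% and 9.07%, with a median of 0.15 against 0.0066 over all genes. Single arrays moved these counts. Against GFP, 7 were higher and 1 lower without GFP replicate 1, 5 higher without GFP replicate 2 and 11 higher without W692A replicate 2. Lower were 5 without W692A replicate 1 and 0 without GFP replicate 3 (limma, with 5 at an unadjusted p under 0.05). Of all 18193 genes, the 991 higher than with GFP became 651 without GFP replicate 1, 712 without GFP replicate 2 and 834 without W692A replicate 2. The 1651 lower became 1123 without GFP replicate 1, 1637 without W692A replicate 1 and 1514 without GFP replicate 3. Against AML1/ETO, 19 of the 94 were higher without AML1/ETO replicate 1 or 3, and 1312 and 1465 of all genes. With all arrays, 20.9% of the oxidative phosphorylation genes above the bound were higher with W692A than with GFP and 3.49% lower. Of all genes above the bound, 10.3% were higher and 17.1% lower. Of the 18 genes higher with W692A than with GFP, Cox7a1 stayed below the bound on every array of both groups.

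Each array's median over the 94 genes, as a difference from the GFP mean, was 0.16, 0.18, 0.15 and 0.14 in W692A samples, −0.12, 0.02 and −0.11 in AML1/ETO samples, and −0.06, −0.02 and 0.06 in GFP samples. All 4 W692A arrays lay above all others, while AML1/ETO replicate 2 lay within the GFP range. These shifts are small beside those of single genes, which ran from −1.09 to 2.08 between AML1/ETO and GFP.

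**Figure D1:**
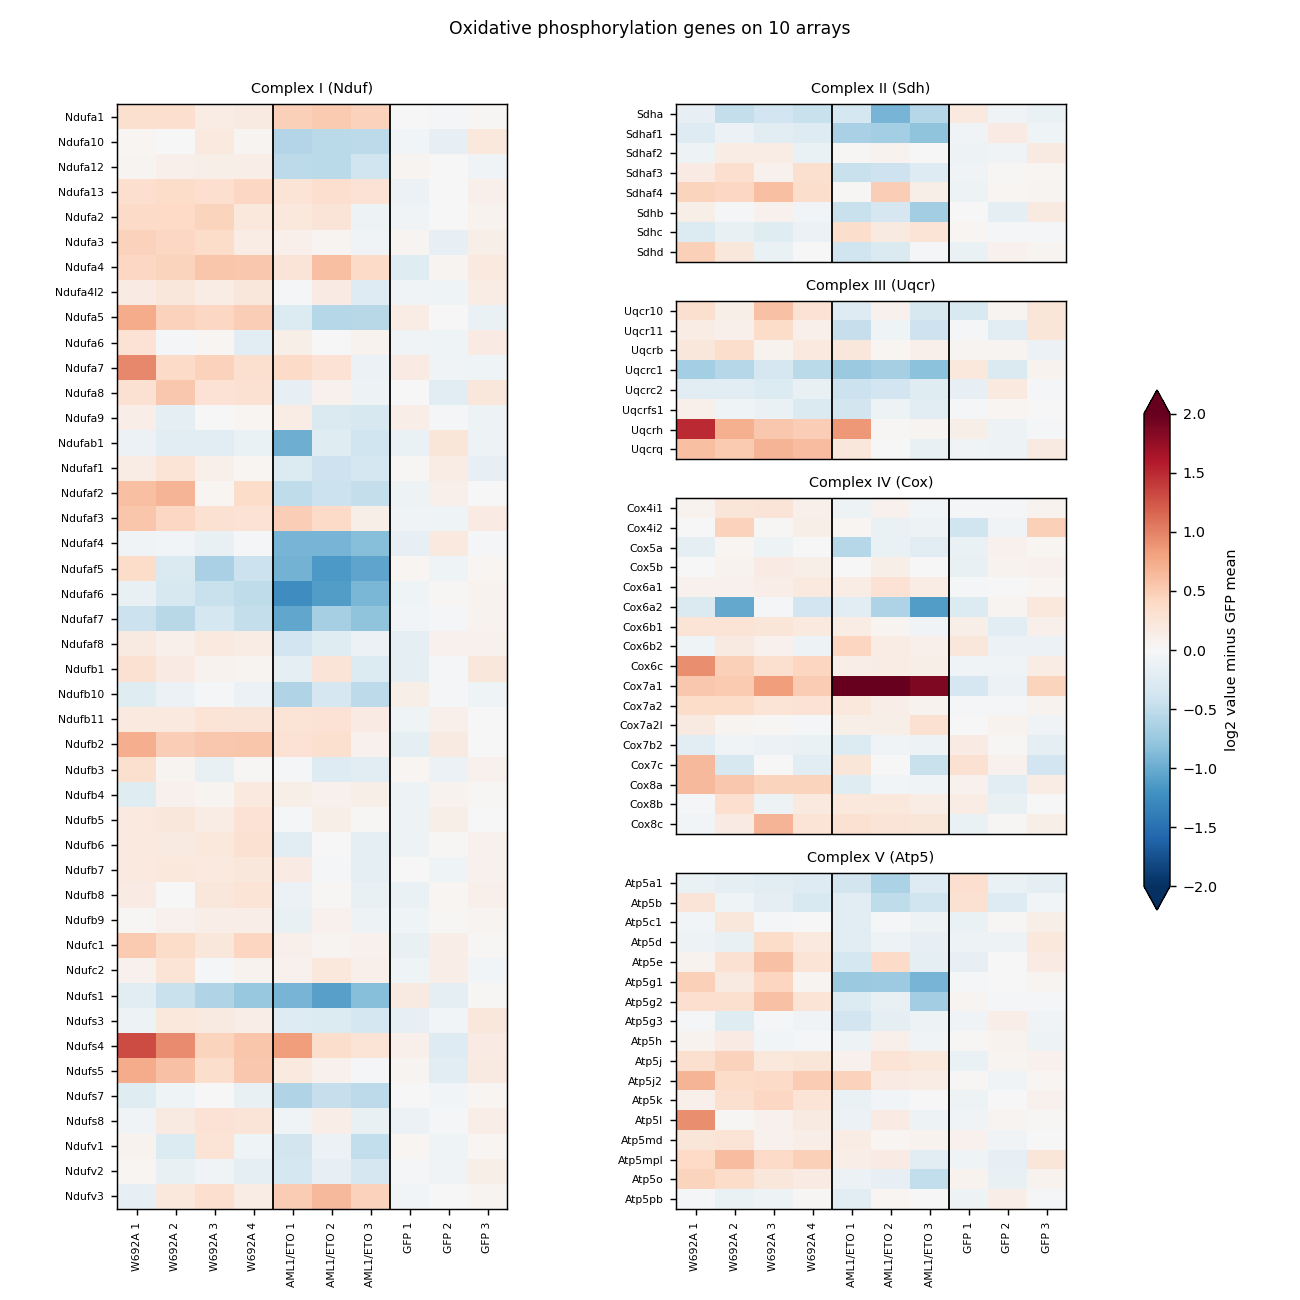
Log2 value of each of the 94 genes (rows, grouped by complex) on each of the 10 arrays (columns, W692A then AML1/ETO then GFP), shown as the difference from the GFP mean of that gene. Red marks values above the GFP mean and blue values below it, and Cox7a1 is the strongest red row in the 3 AML1/ETO columns.

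The arrays differed by group in measures of RNA and labelling. The 3′ signal of Gapdh exceeded its 5′ signal, a gap that grows as transcripts are shortened, by 3.81 to 4.17 in W692A samples, 4.01 to 5.04 in AML1/ETO samples and 4.83 to 4.99 in GFP samples. The 18S ribosomal RNA control signal was 8.56 to 8.996 with W692A, 8.18 to 8.65 with AML1/ETO and 7.74 to 8.13 with GFP. On both measures the ranges of W692A and GFP arrays did not overlap, and on the 18S signal neither did those of AML1/ETO and GFP arrays. With either as a covariate, no gene of the 94 passed the limma test between W692A and GFP. At an unadjusted p under 0.05, 6 were higher and 3 lower with the Gapdh covariate, and 2 were higher and 3 lower with the 18S covariate. Under the same covariates 230 and 126 of all genes were still higher, and 276 and 163 lower. With the 18S covariate the 21 genes lower with AML1/ETO than with GFP became 10 and the 5 higher became 2. Among all 18193 genes, 1848 were then lower and 1511 higher, against 2868 and 2339 without the covariate. The share of lower genes among the 94 was thus near that of all genes. The 30 higher with W692A than with AML1/ETO became 14, and the 1748 of all genes became 1060. The part of these measures in the result was not tested further, since the measures and the groups cannot be told apart.

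Of the 12 assembly factors, all above the bound, 8 (66.7%) were lower with AML1/ETO than with GFP, against 15.8% of all genes and 29.8% of those above the bound. The other 4 did not pass, and the median log2 difference was −0.42, while 13 of the 82 subunit genes (15.9%) were lower and 5 higher, with a median of −0.05. No test of the difference between assembly factors and subunits was made. With W692A, 9 of the 12 (75.0%) were higher than with AML1/ETO and 3 did not pass, with a median of 0.50, against 9.61% of all genes higher and 18.9% of those above the bound. Against GFP, W692A samples had 2 higher, Ndufaf3 and Sdhaf4, and 1 lower, Ndufaf7. The Ndufaf3 call was lost in 15 of 24 alternative analyses, including those without any 1 of the W692A arrays.

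Ndufaf6, an assembly factor of complex I, had the lowest difference between AML1/ETO and GFP. It read 5.70, 5.52, 5.40 and 5.33 in W692A samples, 4.60, 4.73 and 4.93 in AML1/ETO samples, and 5.75, 5.87 and 5.91 in GFP samples. The AML1/ETO arrays lay below all others, and W692A arrays lay between them and the GFP arrays. Expression was 2.13-fold lower with AML1/ETO than with GFP (log2 difference −1.09 ± 0.130, adjusted p = 1.17e-05) and 1.67-fold higher with W692A than with AML1/ETO (0.74 ± 0.122, adjusted p = 0.000466). The W692A difference from GFP, −0.36, did not pass (adjusted p = 0.0675).

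Ndufaf5, a hydroxylase that modifies the core subunit Ndufs7 (known from human cells), read 4.92, 4.26, 3.90 and 4.12 in W692A samples, 3.61, 3.40 and 3.50 in AML1/ETO samples, and 4.60, 4.46 and 4.60 in GFP samples. W692A arrays spread from above the GFP range to below it, while the AML1/ETO arrays were again lowest. The gene was 2.07-fold lower with AML1/ETO than with GFP (−1.05 ± 0.197, adjusted p = 0.000701) and 1.74-fold higher with W692A than with AML1/ETO (adjusted p = 0.00537). Ndufaf4, needed for early assembly of complex I, read 7.48, 7.49, 7.40 and 7.53 with W692A, 6.62, 6.61 and 6.70 with AML1/ETO, and 7.38, 7.74 and 7.51 with GFP. W692A and GFP arrays overlapped, and all AML1/ETO arrays lay below both. The log2 difference was −0.90 ± 0.118 between AML1/ETO and GFP (adjusted p = 2.83e-05) and 0.83 ± 0.110 between W692A and AML1/ETO (adjusted p = 6.63e-05).

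Ndufaf7, a mitochondrial assembly factor of complex I, was lower in both fusion groups. It averaged 3.78 ± 0.0872 in W692A samples (SD, n = 4), 3.40 ± 0.190 in AML1/ETO samples (SD, n = 3) and 4.23 ± 0.0620 in GFP samples (SD, n = 3). The limma difference from GFP was −0.45 with W692A (adjusted p = 0.0152) and −0.84 with AML1/ETO (adjusted p = 8.24e-05), and the W692A call was lost without GFP replicate 3. Ndufaf2, another complex I assembly factor, fell with AML1/ETO against GFP by 0.47 on the log2 scale and was 1.85-fold higher with W692A than with AML1/ETO (0.89 ± 0.141, adjusted p = 0.000326). Of the other Ndufaf genes, Ndufaf1 fell with AML1/ETO against GFP and was higher with W692A than with AML1/ETO, as was Ndufaf8. The calls between AML1/ETO and GFP were lost in 9 of 24 alternatives for Ndufaf2 and 13 for Ndufaf1, for both without any 1 of the AML1/ETO arrays or without GFP replicate 2, for Ndufaf1 also without GFP replicate 1 or W692A replicate 4 and for Ndufaf2 without GFP replicate 3. The Ndufaf8 call was lost without AML1/ETO replicate 1 or 2.

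Promoter windows from RefSeq (GRCm38.p6, 250 bases before to 50 after the transcription start) were available for 78 of the 94 genes. They were searched on both strands for the motif of NRF1, a known activator of respiratory chain genes (GCGC, any base, then TGCGC), and for CCGGAAG (the GABPA and ETS motif), AAGATGGC (YY1), TGTGGT (RUNX, the family of the fusion's DNA-binding part) and CACGTG (the E-box). The NRF1 letters were in 23.1% of the 78 windows and the GABPA letters in 26.9%, against 7.98% and 13.8% of the 14368 windows of genes on the array. The RUNX letters were in 11.5% of the 78 windows, against 13.6% of all windows. Of the 17 windows of genes lower with AML1/ETO than with GFP, 6 held the NRF1 letters and 4 the RUNX letters, and of the 56 windows of genes that did not pass, 12 and 5 did. These matches describe the letters only and were not tested.

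The windows of the gene that rose most and of the 3 that fell most with AML1/ETO, among those with a window, follow, 5′ to 3′, to set the sequence beside the expression values. Capitals mark the NRF1 letters, found on both strands. The windows lie at chr7:30183921-30184220 for Cox7a1, chr2:140170396-140170695 for Ndufaf5, chr4:24897833-24898132 for Ndufaf4 and chr17:78936885-78937184 for Ndufaf7, all on the plus strand of GRCm38.p6.
Cox7a1: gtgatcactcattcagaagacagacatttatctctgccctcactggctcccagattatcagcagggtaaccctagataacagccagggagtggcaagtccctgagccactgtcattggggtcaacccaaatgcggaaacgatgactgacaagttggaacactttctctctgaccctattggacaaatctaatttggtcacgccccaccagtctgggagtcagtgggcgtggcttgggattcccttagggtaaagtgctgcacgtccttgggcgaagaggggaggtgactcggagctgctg
Ndufaf5: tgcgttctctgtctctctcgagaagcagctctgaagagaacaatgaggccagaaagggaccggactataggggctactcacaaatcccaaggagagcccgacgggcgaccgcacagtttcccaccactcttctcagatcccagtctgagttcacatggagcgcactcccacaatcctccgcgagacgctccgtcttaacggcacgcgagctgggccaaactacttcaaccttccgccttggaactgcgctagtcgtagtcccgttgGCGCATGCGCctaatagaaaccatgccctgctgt
Ndufaf4: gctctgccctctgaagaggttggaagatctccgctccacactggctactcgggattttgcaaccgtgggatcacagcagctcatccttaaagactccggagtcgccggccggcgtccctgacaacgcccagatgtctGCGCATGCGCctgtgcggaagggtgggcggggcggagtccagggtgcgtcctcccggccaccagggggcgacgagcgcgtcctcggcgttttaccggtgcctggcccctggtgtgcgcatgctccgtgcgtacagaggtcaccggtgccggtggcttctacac
Ndufaf7: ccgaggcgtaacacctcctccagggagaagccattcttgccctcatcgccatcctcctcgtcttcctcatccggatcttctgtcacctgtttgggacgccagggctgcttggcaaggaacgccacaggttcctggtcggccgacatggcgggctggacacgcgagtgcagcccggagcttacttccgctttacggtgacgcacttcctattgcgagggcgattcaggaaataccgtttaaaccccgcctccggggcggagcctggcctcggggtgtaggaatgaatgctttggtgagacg
The NRF1 letters begin 16 bases after the start of Ndufaf5 and 113 bases before the start of Ndufaf4. None of the 5 motifs was found in the windows of Cox7a1 and Ndufaf7.

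Among the 6 core subunits of complex I measured, all 6 had a negative log2 difference between AML1/ETO and GFP, and 2, Ndufs1 and Ndufs7, passed the test. These 2 make 33.3%, near the 29.8% lower among genes above the bound, where all 6 lie. Of the 8820 genes above the bound, 4864 had a negative difference. Ndufs1, the largest subunit of the peripheral arm and a carrier of iron-sulfur clusters, read 7.04, 6.82, 6.67 and 6.51 in W692A samples, 6.35, 6.18 and 6.43 in AML1/ETO samples, and 7.45, 7.07 and 7.30 in GFP samples. The groups did not overlap, with W692A between the others. The gene was 1.94-fold lower with AML1/ETO than with GFP (−0.96 ± 0.149, adjusted p = 0.000141), 1.43-fold lower with W692A than with GFP (adjusted p = 0.0221) and 1.36-fold higher with W692A than with AML1/ETO (adjusted p = 0.0341). The W692A difference from GFP failed the test in 8 of 24 alternative analyses, among them those without GFP replicate 1 or 3 or W692A replicate 3 or 4. The W692A difference from AML1/ETO also failed in 8, among them those without AML1/ETO replicate 1 or 2 or W692A replicate 1 or 2.

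The 30 complex I genes that are neither core subunits nor assembly factors were counted as accessory subunits, which surround the core. By prefix these include Ndufa4, among those higher with AML1/ETO, and Ndufa4l2. Of the 30, 4 (13.3%) were higher and 5 (16.7%) lower with AML1/ETO than with GFP, close to the 12.9% and 15.8% of all genes. Most of them, 27 of the 30, were above the bound, where larger shares of genes were called, 22.6% higher and 29.8% lower. Ndufv3, an accessory subunit beside the NADH-binding site, was 1.45-fold higher with AML1/ETO than with GFP (0.54 ± 0.133, adjusted p = 0.00566) and 1.32-fold lower with W692A than with AML1/ETO (adjusted p = 0.0302). The W692A call was lost in 9 of 24 alternatives, including those without any 1 of the AML1/ETO arrays or without W692A replicate 1 or 4. Its values were 8.74, 9.11, 9.24 and 9.06 with W692A, 9.41, 9.55 and 9.37 with AML1/ETO, and 8.85, 8.90 and 8.95 with GFP, so that the AML1/ETO arrays were highest. Ndufa1 rose 1.40-fold with AML1/ETO over GFP (adjusted p = 0.00286), and its difference with W692A from GFP, 0.25, did not pass. Ndufa4, first assigned to complex I and now known as a complex IV component, was higher than with GFP in both fusion groups, by 0.49 with W692A (adjusted p = 0.0173) and by 0.42 with AML1/ETO (adjusted p = 0.03). The AML1/ETO call was lost in 9 of 24 alternative analyses, including those without GFP replicate 1, AML1/ETO replicate 2 or AML1/ETO replicate 3, and the W692A call without GFP replicate 1. Its relative Ndufa4l2 was below the bound on all arrays.

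Ndufa5, an accessory subunit of the peripheral arm, was the accessory subunit with the largest difference between the fusions. It read 8.19, 7.90, 7.86 and 7.95 in W692A samples, 7.18, 6.87 and 6.89 in AML1/ETO samples, and 7.59, 7.44 and 7.31 in GFP samples. Again the 3 groups did not overlap, but here W692A was highest and GFP in the middle. W692A exceeded AML1/ETO 2.00-fold (1.00 ± 0.124, adjusted p = 4.06e-05) and GFP 1.44-fold (0.53 ± 0.124, adjusted p = 0.00974), and AML1/ETO was 1.39-fold lower than GFP (adjusted p = 0.0138). This last call was lost without GFP replicate 1, AML1/ETO replicate 2 or AML1/ETO replicate 3. With W692A, 8 of the 30 genes counted as accessory subunits (26.7%), Ndufa4 among them, were higher than with GFP. This compares with 5.45% of all genes and 10.3% of those above the bound. The largest differences were those of Ndufs4 (0.81 ± 0.199, adjusted p = 0.0119), Ndufb2 (0.58 ± 0.120, adjusted p = 0.00425) and Ndufs5 (0.55 ± 0.129, adjusted p = 0.00897). The call for Ndufs4 was lost without GFP replicate 2, as was that for Ndufs5, and with the 18S signal as a covariate the Ndufs4 difference was −0.06.

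**Figure D2:**
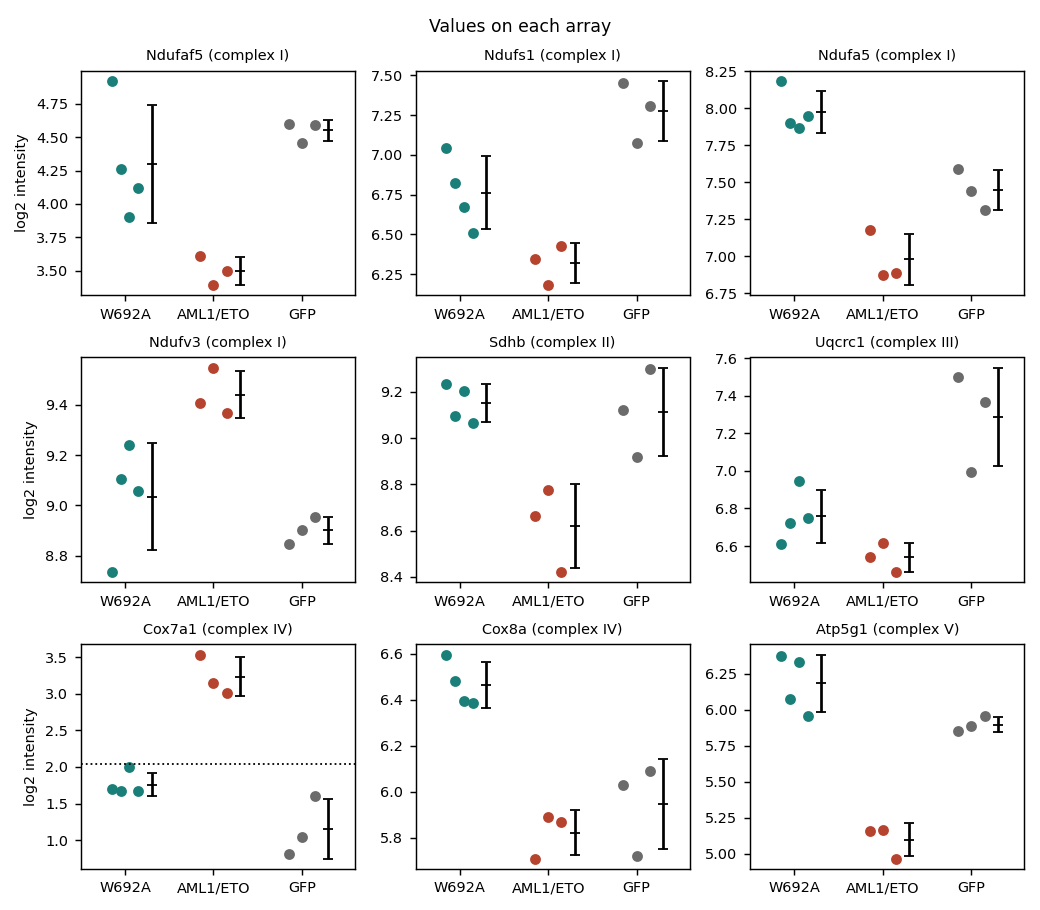
Log2 values of 9 genes on each of the 10 arrays (points), with the mean and SD of each group (bars), W692A on the left, then AML1/ETO, then GFP. The dotted line in the Cox7a1 panel is the background bound of 2.04, above which the 3 AML1/ETO arrays and no others lie for that gene.

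In complex II, which oxidises succinate, 4 of 8 genes (50.0%) were lower with AML1/ETO than with GFP, against 29.8% of the genes above the bound: the catalytic subunit Sdha, the iron-sulfur subunit Sdhb, and the assembly factors Sdhaf1 and Sdhaf3, which are known to act on Sdhb. Sdha read 8.81, 8.50, 8.61 and 8.54 in W692A samples, 8.62, 8.05 and 8.41 in AML1/ETO samples, and 9.18, 8.92 and 8.85 in GFP samples. Every GFP array was above every fusion array, and the 2 fusion groups overlapped. The difference between AML1/ETO and GFP was −0.62 ± 0.153 (adjusted p = 0.00541) and that between W692A and GFP, −0.37, did not pass (adjusted p = 0.108). Averaged over its 4 probe sets, Sdha did not pass between AML1/ETO and GFP.

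Sdhb read 9.24, 9.10, 9.20 and 9.07 with W692A, 8.66, 8.78 and 8.42 with AML1/ETO, and 9.12, 8.92 and 9.30 with GFP. Only the AML1/ETO arrays stood apart, with a difference of −0.49 ± 0.133 from GFP (adjusted p = 0.0102), while W692A was 0.53 ± 0.124 above AML1/ETO (adjusted p = 0.00618). The AML1/ETO call was lost without GFP replicate 3 and without AML1/ETO replicate 3. Sdhaf1 was −0.71 ± 0.116 below GFP with AML1/ETO (adjusted p = 0.000202) and 0.50 ± 0.108 higher with W692A than with AML1/ETO (adjusted p = 0.00346). Sdhaf3 was 0.60 ± 0.109 higher with W692A than with AML1/ETO (adjusted p = 0.000988), and its difference of −0.37 between AML1/ETO and GFP (adjusted p = 0.0247) failed in 8 of 24 alternatives, including those without GFP replicate 2 or 3 or AML1/ETO replicate 1 or 2.

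The membrane anchors of complex II were not called between AML1/ETO and GFP. Sdhc read 4.06, 4.19, 4.09 and 4.21 in W692A samples, 4.68, 4.52 and 4.60 in AML1/ETO samples, and 4.37, 4.31 and 4.32 in GFP samples. Its order was the reverse of that of Sdhb, with AML1/ETO arrays highest, and W692A was 1.38-fold lower than AML1/ETO (−0.46 ± 0.102, adjusted p = 0.00409). The mean of its 2 probe sets did not pass. Sdhd, the other anchor, and Sdhaf2, which helps attach FAD to Sdha, passed in none of the 3 comparisons, with adjusted p of 0.0884 or higher, although another probe set of Sdhaf2 passed between W692A and GFP as lower. Sdhaf4 was 1.37-fold higher with W692A than with GFP (adjusted p = 0.0263), a call lost in 6 of 24 alternatives, including those without GFP replicate 1 or 2 or W692A replicate 3.

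In complex III, which passes electrons from coenzyme Q to cytochrome c, 2 of 8 genes were lower with AML1/ETO than with GFP, the core proteins Uqcrc1 and Uqcrc2. This share lies between the 15.8% of all genes and the 29.8% of those above the bound, where all 8 lie. Uqcrc1 read 6.61, 6.72, 6.95 and 6.75 in W692A samples, 6.54, 6.62 and 6.46 in AML1/ETO samples, and 7.50, 7.00 and 7.37 in GFP samples. GFP arrays were highest without overlap, at a log2 difference of −0.53 ± 0.132 with W692A (adjusted p = 0.0136) and −0.75 ± 0.141 with AML1/ETO (adjusted p = 0.00077). The fusion groups differed by 0.22, which did not pass (adjusted p = 0.315). The W692A call was lost without GFP replicate 1 or 3. Uqcrc2 fell by 0.36 on the log2 scale with AML1/ETO against GFP (adjusted p = 0.0374), and lost the call in 8 of 24 alternatives, including those without GFP replicate 2 or 3 or AML1/ETO replicate 1 or 2.

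With W692A, 3 of the 8 genes (37.5%) were higher than with AML1/ETO, against 18.9% of the genes above the bound, and all 3 were small subunits. Uqcrq read 8.27, 8.19, 8.35 and 8.30 in W692A samples, 7.91, 7.69 and 7.53 in AML1/ETO samples, and 7.61, 7.57 and 7.85 in GFP samples. All W692A arrays lay above the others, 0.57 ± 0.120 above AML1/ETO (adjusted p = 0.00282) and 0.60 ± 0.120 above GFP (adjusted p = 0.0031), while AML1/ETO and GFP overlapped. Averaged over its 4 probe sets, Uqcrq passed in neither of these comparisons. Against AML1/ETO, W692A samples were also higher in Uqcr11 (0.51 ± 0.136, adjusted p = 0.0145) and Uqcr10 (0.49 ± 0.154, adjusted p = 0.0327). Both calls were lost without AML1/ETO replicate 1 or 3, and that of Uqcr10 also without W692A replicate 1, 3 or 4. Uqcrh, the hinge protein, was 0.81 ± 0.233 higher with W692A than with GFP (adjusted p = 0.0301). W692A replicate 1 read 4.96 and the other W692A arrays 3.96 to 4.19, and AML1/ETO replicate 1 read 4.34 against 3.49 and 3.52. The call between W692A and GFP was lost without W692A replicate 1 or 2 or any 1 of the GFP arrays. With the 18S signal as a covariate that difference was −0.30.

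Complex IV, cytochrome c oxidase, had by prefix the fewest calls between AML1/ETO and GFP, 1 of 17 genes (5.88%), as higher. The complex IV component Ndufa4, counted with complex I by its prefix, was also higher in that comparison. Among all genes 12.9% were higher and 15.8% lower. Only 13 of the 17 were above the bound, where 22.6% of genes were higher and 29.8% lower. The gene called among the 17, Cox7a1, the isoform of subunit VIIa typical of heart and skeletal muscle, had the largest difference of all 94 genes. It read 1.70, 1.67, 2.00 and 1.67 in W692A samples, 3.54, 3.15 and 3.02 in AML1/ETO samples, and 0.81, 1.04 and 1.61 in GFP samples. Only the AML1/ETO arrays were above the bound of 2.04. The AML1/ETO group exceeded the GFP group by at least 2.29-fold (fitted difference 2.08 ± 0.189, adjusted p = 7.56e-07), and the W692A group was at least 2.29-fold lower than the AML1/ETO group (−1.48 ± 0.177, adjusted p = 2.82e-05). These folds are lower limits, since they set the AML1/ETO mean against the lowest measurable value. The call between W692A and GFP (0.61, adjusted p = 0.0326) lies below the bound, has no fold and was lost in 9 of 24 alternatives, including those without GFP replicate 1 or 2 or W692A replicate 2, 3 or 4. Cox7a1 has 1 probe set, so no other probe set could be compared.

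Neither of the other forms of subunit VIIa passed between AML1/ETO and GFP. Cox7a2, the form found in most tissues, read 9.75, 9.74, 9.66 and 9.67 with W692A, 9.59, 9.52 and 9.45 with AML1/ETO, and 9.36, 9.34 and 9.45 with GFP. Its difference between AML1/ETO and GFP, 0.14, did not pass (adjusted p = 0.427), and the difference of 0.32 with W692A from GFP (adjusted p = 0.0412) was lost in 14 of 24 alternatives, including the omission of any 1 array. Cox7a2l, a relative that joins complexes into supercomplexes, passed in none of the comparisons, with adjusted p of 0.327 or higher. The difference in response between Cox7a1 and its relatives was not tested.

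Other tissue-restricted forms were dim or were not called. Cox4i2, Cox6b2, Cox7b2 and Cox8b stayed at or below the bound on every array, and their common partners Cox4i1 and Cox6b1 passed in none of the comparisons, with adjusted p of 0.191 or higher. Cox6a2, the muscle form of subunit VIa, was −0.66 ± 0.241 below GFP with AML1/ETO, which missed the threshold (adjusted p = 0.0549), while its other probe set passed as lower in both fusion groups, and its partner Cox6a1 did not pass in any comparison. Cox8c, another isoform of subunit VIII, read between 2.49 and 3.31 over all arrays and passed in no comparison. Cox8a, the common form, was higher with W692A, at 6.60, 6.48, 6.39 and 6.39, than with AML1/ETO, at 5.71, 5.89 and 5.87, or with GFP, at 6.03, 5.72 and 6.09. W692A did not overlap with either, and exceeded AML1/ETO 1.56-fold (adjusted p = 0.00112) and GFP 1.43-fold (adjusted p = 0.00824). The Cox8a call against GFP was lost without GFP replicate 2 and when its probe sets were averaged. Cox6c was higher with W692A than with GFP (0.54 ± 0.138, adjusted p = 0.016), a call lost without GFP replicate 1 or 2, and its difference from AML1/ETO, 0.41, was at the threshold (adjusted p = 0.0489) and lost in 17 of 24 alternatives, including the omission of any 1 array but W692A replicate 3.

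In complex V, 2 of 17 genes (11.8%) were lower with AML1/ETO than with GFP, below the 15.8% of all genes. The share was also below the 29.8% of genes above the bound, where 16 of the 17 lie. With W692A, 5 of the 17 (29.4%) were higher than with AML1/ETO, against 9.61% of all genes and 18.9% of those above the bound. The c subunit, which forms the rotating ring in the membrane, is made from 3 genes that encode the same mature protein, and these differed in their calls. Atp5g1 read 6.37, 6.08, 6.33 and 5.96 in W692A samples, 5.16, 5.17 and 4.97 in AML1/ETO samples, and 5.85, 5.89 and 5.95 in GFP samples. AML1/ETO arrays were lowest by a wide gap, and the lowest W692A array lay just above the highest GFP array. Expression was 1.74-fold lower with AML1/ETO than with GFP (−0.80 ± 0.131, adjusted p = 0.000228) and 2.12-fold higher with W692A than with AML1/ETO (1.09 ± 0.123, adjusted p = 1.63e-05).

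Atp5g2, the second of these genes, read 5.95, 5.94, 6.19 and 5.88 with W692A, 5.34, 5.47 and 4.93 with AML1/ETO, and 5.68, 5.60 and 5.57 with GFP. The order of the groups was that of Atp5g1, with a smaller spread of means. W692A exceeded AML1/ETO 1.68-fold (0.75 ± 0.134, adjusted p = 0.000879), and the difference of −0.37 between AML1/ETO and GFP did not pass (adjusted p = 0.07). Atp5g3 read 9.75, 9.55, 9.76 and 9.72 with W692A, 9.41, 9.60 and 9.68 with AML1/ETO, and 9.72, 9.92 and 9.72 with GFP. It passed in none of the comparisons, with adjusted p of 0.213 or higher. Whether the 3 genes responded differently was not tested.

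Atp5a1, the alpha subunit of the catalytic F1 head, was 1.34-fold lower with AML1/ETO than with GFP (adjusted p = 0.0434), a call lost in 11 of 24 alternatives, including those without GFP replicate 1, AML1/ETO replicate 1 or 2, or W692A replicate 2 or 4. Among subunits of the stalk and membrane part, Atp5o, the stalk protein known as OSCP, was 1.47-fold higher with W692A than with AML1/ETO (0.56 ± 0.125, adjusted p = 0.00446). Atp5mpl, a small proteolipid of the synthase, was higher with W692A both than with AML1/ETO (0.44 ± 0.134, adjusted p = 0.028) and than with GFP (0.47 ± 0.134, adjusted p = 0.0282). Each of these calls was lost in 8 of 24 alternatives, both with the replicate block and without W692A replicate 2 or 4, the first also without AML1/ETO replicate 3 and the second without GFP replicate 1 or 2. Atp5j2, the f subunit, was 1.40-fold higher with W692A than with GFP (adjusted p = 0.0132). That call was lost in 4 of 24 alternatives: with its probe sets averaged, with the Gapdh or 18S covariate, and without GFP replicate 2. None of the 5 F1 genes passed the limma test between W692A and GFP.

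**Figure D3:**
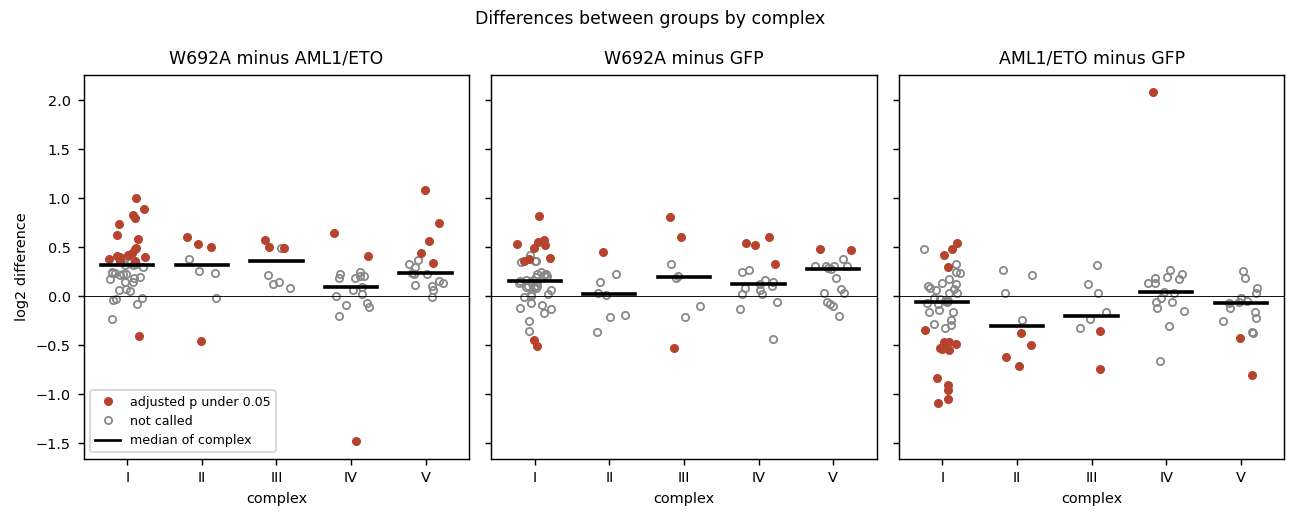
Log2 difference of each of the 94 genes (points) in the 3 comparisons (panels), by complex, filled where the gene passed the limma test, with black bars at the medians. Between W692A and AML1/ETO most points lie above 0 in all 5 complexes, and Cox7a1 is the lowest point.

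Where a called gene had other probe sets, these did not always pass. Of the 33 genes called between W692A and AML1/ETO, 17 had others, and in 9 at least 1 other passed in the same direction. The counts were 11 and 7 of the 21 genes called between W692A and GFP, and 11 and 6 of the 26 called between AML1/ETO and GFP. In no comparison did another probe set of a called gene pass in the opposite direction. The probe sets of 22 of the 94 genes bear the manufacturer's suffixes for probes that can match related transcripts, 15 of one kind and 7 of the other.

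Genes of neighbouring mitochondrial processes were taken from lists made from general knowledge. Of the electron carriers and coenzyme Q enzymes, 9 of 15 measured (60.0%) were lower with AML1/ETO than with GFP and the other 6 did not pass, with a median log2 difference of −0.63. Of the tricarboxylic acid cycle and pyruvate dehydrogenase genes, 8 of 16 (50.0%) were lower and 8 did not pass, with a median of −0.43. Of the mitochondrial biogenesis and DNA genes, 9 of 17 (52.9%) were lower and 1 was higher, with a median of −0.52. These shares are set against 15.8% lower among all genes and 29.8% among those above the bound. Of the assembly factors outside the prefixes, of which 25 of 31 were above the bound, 9 (29.0%) were lower and 1 higher, a share near that of genes above the bound. Differences between lists were not tested.

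With W692A, 8 of 15 carriers and coenzyme Q enzymes (53.3%) were higher than with AML1/ETO and 1 was lower, against 9.61% higher among all genes and 18.9% among those above the bound. Of the cycle genes 5 of 16 (31.2%) and of the biogenesis genes 6 of 17 (35.3%) were higher, with 1 biogenesis gene lower. The 6 of 31 outside assembly factors that were higher (19.4%) were close to the share of genes above the bound. Against GFP, no gene of any of these lists was higher with W692A. Lower were 3 of 15 carrier and coenzyme Q, 4 of 16 cycle, 3 of 17 biogenesis and 3 of 31 outside assembly factor genes. In that comparison 18 of the 94 genes were higher and 3 lower, and 10.3% and 17.1% of genes above the bound. Coq2, which attaches the side chain of coenzyme Q, averaged 6.82 ± 0.0989 in W692A samples (SD, n = 4), 6.39 ± 0.151 in AML1/ETO samples (SD, n = 3) and 7.52 ± 0.0577 in GFP samples (SD, n = 3). It was lower than with GFP in both fusion groups, by limma differences of −0.70 with W692A (adjusted p = 0.000565) and −1.13 with AML1/ETO (adjusted p = 3.18e-06). Etfdh, which feeds electrons from fatty acid oxidation into coenzyme Q, was the carrier gene lower with W692A than with AML1/ETO (−0.67 ± 0.156, adjusted p = 0.00609). It was 2.50-fold lower with W692A and 1.57-fold lower with AML1/ETO, each against GFP.

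Bcs1l, which inserts the Rieske protein into complex III, was −0.45 below GFP with W692A (adjusted p = 0.0299) and −1.17 below with AML1/ETO (adjusted p = 1.09e-05), and the W692A call was lost in 11 of 24 alternatives, including the omission of any 1 GFP array or of W692A replicate 1, 2 or 4. Foxred1, a complex I assembly factor, was lower than GFP in both fusion groups, at −0.98 with W692A and −1.16 with AML1/ETO. Ttc19, an assembly factor of complex III, was the only one of the outside factors to rise with AML1/ETO against GFP (0.67 ± 0.201, adjusted p = 0.0191), on 1 of its 3 probe sets, a call lost without GFP replicate 3 or AML1/ETO replicate 2. Nubpl, which delivers iron-sulfur clusters to complex I, was 1.78-fold higher with W692A than with AML1/ETO (adjusted p = 9.98e-05). Suclg2, a subunit of succinyl-CoA synthetase, was 1.34-fold lower with W692A and 2.10-fold lower with AML1/ETO, each against GFP. Idh3a, a subunit of isocitrate dehydrogenase, was −1.31 below GFP with AML1/ETO on its brightest probe set, but of its 3 other probe sets 2 passed in that direction and 1 in the opposite direction.

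A pair of coactivators of mitochondrial biogenesis were called in opposite directions with AML1/ETO. Ppargc1b (PGC-1 beta) read 4.33, 4.08, 4.25 and 4.07 in W692A samples, 2.77, 2.96 and 3.29 in AML1/ETO samples, and 4.21, 4.27 and 4.29 in GFP samples. W692A and GFP overlapped, and AML1/ETO was 2.38-fold lower than GFP (−1.25 ± 0.139, adjusted p = 5.67e-06). Ppargc1a (PGC-1 alpha) read 1.20, 0.81, 1.63 and 0.84 with W692A, 2.48, 1.67 and 3.10 with AML1/ETO, and 0.72, 0.76 and 1.28 with GFP. It was above the bound on 2 of 3 AML1/ETO arrays and on no other array, and the AML1/ETO group exceeded the GFP group by at least 1.30-fold (fitted difference 1.50 ± 0.294, adjusted p = 0.00105). That call was lost when values below the bound were set to it and with the 18S covariate. Tfb1m, a mitochondrial ribosomal RNA methyltransferase, was lower than GFP in both fusion groups, by 2.06-fold with W692A and 2.37-fold with AML1/ETO.

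**Figure D4:**
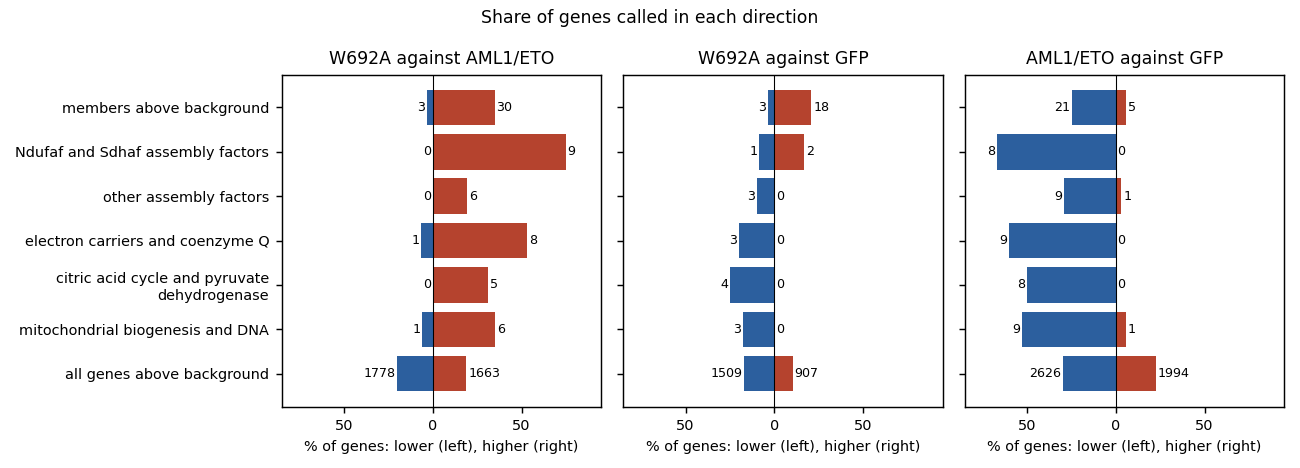
Percent of genes that passed the limma test as lower (blue, left of 0) or higher (red, right of 0) in the 3 comparisons (panels), with counts beside the bars, for the 86 oxidative phosphorylation genes above the bound, their 12 assembly factors, the other mitochondrial lists and the 8820 genes above the bound as the background. Between AML1/ETO and GFP the longest bars on the lower side are those of the assembly factors (8 of 12) and of the carriers and coenzyme Q enzymes (9 of 15).

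Markers of cell types moved with the groups beside these genes. The mean log2 value over the 12 stem and progenitor markers was 5.51 to 5.75 on W692A arrays, 6.07 to 6.18 on AML1/ETO arrays and 4.74 to 4.87 on GFP arrays. Of these markers, 7 were higher and 1 lower with W692A than with GFP, and 8 were higher and 1 lower with AML1/ETO. Among all genes above the bound, 10.3% were higher and 17.1% lower with W692A, and 22.6% and 29.8% with AML1/ETO. The means over 5 eosinophil markers were 2.46 to 2.63 with W692A, 2.49 to 3.14 with AML1/ETO and 4.27 to 4.61 with GFP. Those over 9 erythroid markers were 3.16 to 3.22, 3.05 to 3.39 and 3.95 to 4.13 in the same groups. Between AML1/ETO and GFP, 4 erythroid markers were lower and 1, Car2, was higher. Of the 9 log2 differences 5 were positive, the median was 0.03 and the lowest was −5.50. With W692A, 4 erythroid markers were lower than with GFP and 0 were higher. A group mean above the bound was found for 5 of the 9 erythroid, 3 of the 5 eosinophil and 6 of the 8 mast cell and basophil markers. Those below it in all groups included the erythroid genes Hba-a1, Alas2 and Car1 and the eosinophil receptor genes Ccr3 and Il5ra. The 8 mast cell and basophil markers averaged 4.11 to 4.36 with W692A, 4.92 to 5.76 with AML1/ETO and 3.29 to 3.91 with GFP.

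The monocyte and macrophage markers averaged 4.39 to 4.59 with W692A, 4.54 to 4.89 with AML1/ETO and 3.77 to 3.95 with GFP, and 3 of the 9 were below the bound in all groups. The neutrophil markers averaged 4.81 to 5.25, 4.89 to 5.76 and 5.38 to 5.76 in W692A, AML1/ETO and GFP samples. The megakaryocyte markers averaged 3.50 to 4.01, 3.98 to 4.07 and 4.46 to 4.87. Both lists held genes of either direction: between AML1/ETO and GFP, 2 neutrophil markers were higher and 7 lower. Of the megakaryocyte markers, 2 were higher and 4 lower in that comparison. Stem cell markers were thus highest with AML1/ETO and lowest with GFP, and for the 94 genes the array means were highest with W692A (7.10 to 7.19), lowest with AML1/ETO (6.83 to 6.93) and between these with GFP (6.96 to 7.05). The part of cell type shares in the differences described above was not tested.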

How the data were processed

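The authors deposited 1 table of log2 values for 45101 probe sets on 10 arrays, made with RMA, per the submitters' processing notes, which name no version. RMA corrects background, sets all arrays to 1 intensity distribution and summarises the probes of a probe set, so differences in total RNA between groups are hidden. No source states the log base: the highest deposited value, 12.77, would exceed a 16-bit scanner's range as a natural logarithm, so the log2 scale was used. All value columns were mapped to samples by title (0 were not mapped). Per the labels' protocols, 50 ng of total RNA was amplified and labelled with biotin.

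Probe sets with 1 listed symbol (34958) gave 18193 genes, each represented by its brightest probe set on average. Values were tested with limma 3.58.1 in R 4.3.3 (lmFit and eBayes, 3 groups in 1 fit, 7 residual degrees of freedom, Benjamini-Hochberg over all genes), after a check on simulated data. Folds against groups below the bound are lower limits. The number of arrays limits the precision. The members and lists were chosen with earlier results of these data known. Genes are named as follows: per comparison and complex, up to 3 called members with the highest and 3 with the lowest difference among those whose groups do not overlap, all of complex II, all listed paralogues, and up to 2 per direction from each other pathway list. Genes outside this rule that the text names, such as Ndufs7, Ndufaf1, Ndufaf3 and Ndufaf8, were chosen after their values were seen. Alternatives were filters on dim genes, the handling of several probe sets, further normalization, variance and array weights, a replicate block, RNA measures as covariates and the omission of each array. Same-numbered arrays of different groups correlated at −0.13 to 0.46 in their deviations, above 0.1 in 4 of 9 pairs. Replicate 1 arrays correlated at 0.29 (GFP and AML1/ETO), 0.26 (GFP and W692A) and 0.46 (AML1/ETO and W692A). The numbers were not taken as pairs in the main fit, and a shared effect of replicate 1 was not tested. Promoter windows come from RefSeq, GRCm38.p6.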

Additional observations from a re-analysis of the deposited data

Results flagged for a closer look

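Among the 94 genes in the 4 W692A arrays, the only group large enough to be examined for single outlying arrays, 4 genes had 1 array far from the other 3 relative to their range. Chance alone gives about 1 in 20 such groups. Atp5c1 read 11.4 on W692A replicate 2, against 11.1 on the other W692A arrays. Ndufa8 read 8.57 on the same array, against 8.33 to 8.34. Cox7a1 read 2.00 on W692A replicate 3, against 1.67 to 1.70, all below the bound. Uqcr11 read 9.05 on W692A replicate 3, against 8.78 to 8.83.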

How the results depend on the processing

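Between AML1/ETO and GFP, 5 of the 94 genes were higher in the analysis reported, against 3 after subtracting array medians, with only those 2 groups fitted or with the spike-in level as a covariate, and 2 with the Gapdh or 18S covariate. Of all 18193 genes, the 2339 higher became 2099, 2360, 1852, 1839 and 1511 in these settings, in the order given. The 21 lower genes of the 94 became 10 with the 18S covariate, and the 2868 lower of all genes became 1848. The median log2 difference over the 94 genes, −0.06, was −0.12 after subtracting array medians and −0.0064 with the spike-in covariate. Between W692A and GFP, the 18 higher and 3 lower genes became 11 and 1 when dim values were raised to the bound, and 0 and 0 with the Gapdh or 18S covariate (limma; at an unadjusted p under 0.05, 6 and 3 with the Gapdh and 2 and 3 with the 18S covariate). With probe sets averaged 5 were lower. The median, 0.15, was 0.0824 with the Gapdh covariate. Between W692A and AML1/ETO, the 30 higher genes became 19, 17 and 14 with the Gapdh, spike-in and 18S covariates. Of all genes, the 1748 higher became 1472, 1423 and 1060. The median over the 94 genes, 0.24, was 0.31 after subtracting array medians. Leaving out 1 array at a time gave 3 to 5 higher, 16 to 22 lower and a median of −0.12 to −0.0223 between AML1/ETO and GFP. Between W692A and GFP it gave 5 to 19 higher, 0 to 5 lower and a median of 0.13 to 0.19: 7 were higher and 1 lower without GFP replicate 1, 5 higher without GFP replicate 2, 11 higher without W692A replicate 2, none lower (5 at an unadjusted p under 0.05) without GFP replicate 3, and 5 lower without W692A replicate 1. Of all 18193 genes, the 991 higher became 651 without GFP replicate 1, 712 without GFP replicate 2 and 834 without W692A replicate 2. Between W692A and AML1/ETO, leaving out 1 array gave 19 to 30 higher, 2 to 3 lower and a median of 0.20 to 0.27. Without AML1/ETO replicate 1 or 3, 19 of the 94 were higher, and 1312 and 1465 of all genes. The cause was not tested. With the 18S covariate the differences between W692A and GFP were −0.0613 for Ndufs4 (adjusted p = 0.973) and −0.30 for Uqcrh (adjusted p = 0.844). With the replicate number as a block, 4 genes were higher and 20 lower between AML1/ETO and GFP, 13 and 2 between W692A and GFP, and 22 and 3 between W692A and AML1/ETO.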
